A study of Homo sapiens with 2 samples.

Results

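The proteasome subunit genes are the 42 genes that encode the 20S core particle, its interferon-inducible catalytic subunits, the 19S regulatory particle and the proteins that cap or restrain the core. They were taken by gene symbol, and 41 of them were matched to a row among the 57736 genes listed for each library. PSMB3, a beta-ring subunit of the core, was not matched, so its level was not analysed here and only its promoter was read. The libraries were made from poly(A)+ RNA of wild type HEK293T cells, which derive from embryonic human kidney and express the large T antigen of SV40. By the labels, they had been kept at 43 °C for 20 min and then returned to 37 °C for 6 h; the study's text gives a longer time at the higher temperature, and the labels were followed. The group held 2 replicates, each lysed and sequenced separately as 50 bp reads, and untreated cells were not analysed here. The values below are therefore levels in heat-shocked cells and the spread between their replicates, and no change upon heat shock can be read from them. Expected counts summed to 22529828 in replicate 1 and 26890199 in replicate 2, so that 3 counts, the limit that a count of 0 allows, correspond to 0.133 and 0.112 CPM (counts scaled to the library total). This limit covers counting error only. Of 14 matched epithelial markers, 5 (PAX2, WT1, CDH1, KRT8 and KRT18) reached 1 TPM (the length-corrected share of transcripts) in both libraries. UMOD, AQP2 and CDH16, which mark differentiated tubules, were at 0. The study cites earlier work that relates HEK293T cells to neurons rather than to typical kidney epithelium. Of 7 immune cell markers, which mark cells that make immunoproteasomes without induction, 1 reached 1 TPM in both libraries, and PTPRC, the pan-leukocyte marker, was at 0.

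The proteasome degrades proteins that carry ubiquitin chains. Its core is a barrel of stacked rings: the outer alpha rings gate the entry pore, and the inner beta rings hold the proteolytic sites. The 19S particle binds the ends of the barrel, recognises ubiquitin, removes the chain and unfolds the substrate with a ring of ATPases. Interferon-inducible beta subunits can replace the constitutive catalytic subunits to form the immunoproteasome, which favours peptides for antigen presentation. After heat stress, unfolded proteins that chaperones do not recover are cleared in part by this route. The transcription factor NRF1 (gene NFE2L1) is known to raise the subunit genes together when the proteasome is overloaded.

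Most of the subunit genes had a TPM well above that of the median detected protein-coding gene. Of the 41 genes, 38 reached 1 TPM in both libraries, and 36 lay above 18.6 TPM, the median of 12367 detected protein-coding genes. The median member was at 79.1 TPM, at the 85.7th percentile of detected protein-coding genes, and 25 members lay within 2-fold of it. Together they held 0.409% of all TPM in replicate 1 and 0.396% in replicate 2 (0.403% ± 0.0091, SD, n = 2). The genes below the limit were PSMB8 and PSMB9, which encode immunosubunits, and PSMD5, which encodes an assembly chaperone of the 19S base. Between the libraries the TPM of a member differed by a median of 1.13-fold, and 29 of the 40 members above 0 in both differed by less than 1.2-fold.

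**Figure D1:**
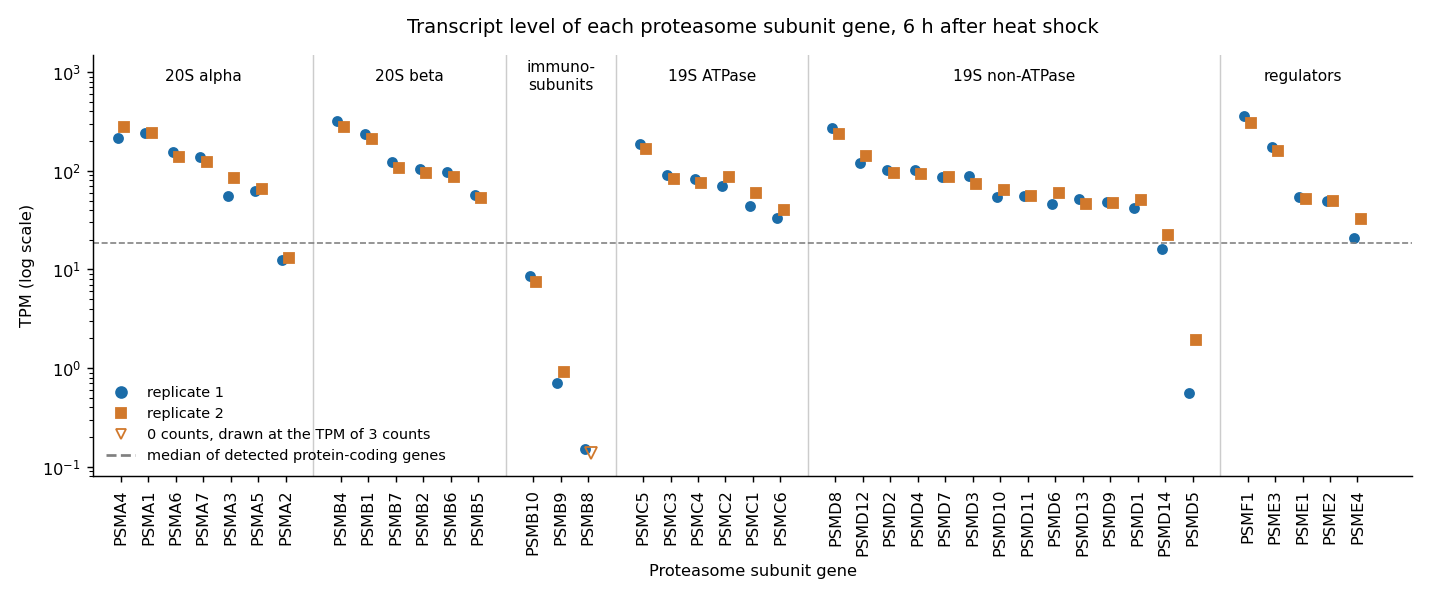
Each gene has a point for its TPM in replicate 1 and replicate 2 on a log scale, grouped by subcomplex and ordered by mean; the dashed line is the median of detected protein-coding genes. Most genes lie above that line in both libraries, the 3 immunosubunits, PSMD5 and PSMA2 lie below it in both, and PSMD14 lies below it in replicate 1.

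The 7 alpha-ring genes had a median of 137 TPM in replicate 1 and 122 TPM in replicate 2. PSMA4 was the highest of them on average, with 217 and 280 TPM, and PSMA1 followed with 242 and 241 TPM. The 2 ranges overlapped, so their order was within the spread. PSMA6 (157 and 138 TPM) and PSMA7 (137 and 122 TPM) came next, and PSMA3 (55.0 and 84.5 TPM) and PSMA5 (62.1 and 64.9 TPM) stood lower. PSMA2 (chr7:42956427-42971784, GRCh37, minus strand) was the lowest, with 12.60 and 13.03 TPM. It was 19.4-fold below PSMA4 on average, although each ring of the core holds each alpha subunit once. The size of this gap depended on the length used: the deposited length of PSMA4 was 920 and 873 bases, while its canonical transcript has 4378. On CPM per kb of canonical transcript, PSMA4 had 34.98 and 40.72, beside 11.20 and 11.05 for PSMA2. On that scale PSMA2 was still the lowest of the ring, and PSMA1 was the highest with 114.6 and 107.4. PSMA2 shares 29.0% of the 50-base sequences of its transcripts with other genes. A readthrough gene, ENSG00000256646, that contains PSMA2 exons was given 366 and 441 counts beside the 362 and 426 counts of PSMA2 itself.

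The 6 matched constitutive beta-ring genes lay closer together, within 5.44-fold of each other. PSMB4 (chr1:151372036-151374413, plus strand) encodes a subunit without proteolytic activity and was the highest, with 323 and 279 TPM. PSMB1, also non-catalytic, had 238 and 212 TPM, and PSMB2 had 105 and 94.0 TPM. The catalytic subunits were lower than PSMB4 and PSMB1. PSMB7, which carries the trypsin-like site, was at 124 and 107 TPM. PSMB6, which carries the caspase-like site, was at 96.3 and 86.9 TPM. PSMB5, which carries the chymotrypsin-like site, was the lowest of the ring at 57.0 and 53.5 TPM. The ranges of PSMB7, PSMB6 and PSMB5 over the 2 libraries did not overlap.

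The immunosubunits were far below the constitutive subunits whose place they take. PSMB8 (chr6:32808494-32812456, minus strand), the counterpart of PSMB5, had 3 counts in replicate 1 and 0 in replicate 2, which is 0.15 and 0 TPM. PSMB5 exceeded it 380-fold in replicate 1 (131 to 1857, the 95% Poisson interval of the immunosubunit count). In replicate 2, with 3 counts set in place of its 0, PSMB8 would be 388.7-fold lower, and the 95% interval for 0 counts began at 316-fold. These intervals, too, cover counting error only, since reads made by PCR are not independent molecules. PSMB9 (chr6:32811913-32827628, plus strand), the counterpart of PSMB6, had 12 and 18 counts, or 0.71 and 0.91 TPM, so that PSMB6 was 136-fold higher in replicate 1 (interval 77.3 to 261) and 95.4-fold higher in replicate 2 (60.7 to 162). PSMB10 (chr16:67968409-67970767, minus strand), the counterpart of PSMB7, was the one immunosubunit above 1 TPM, with 117 and 125 counts and 8.54 and 7.54 TPM. PSMB7 exceeded it 14.5-fold (12.1 to 17.5) and 14.2-fold (11.9 to 17.1). The intervals for PSMB8 and PSMB9 overlapped in replicate 1 and not in replicate 2, and in both libraries the interval for PSMB10 lay below that for PSMB9.

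**Figure D2:**
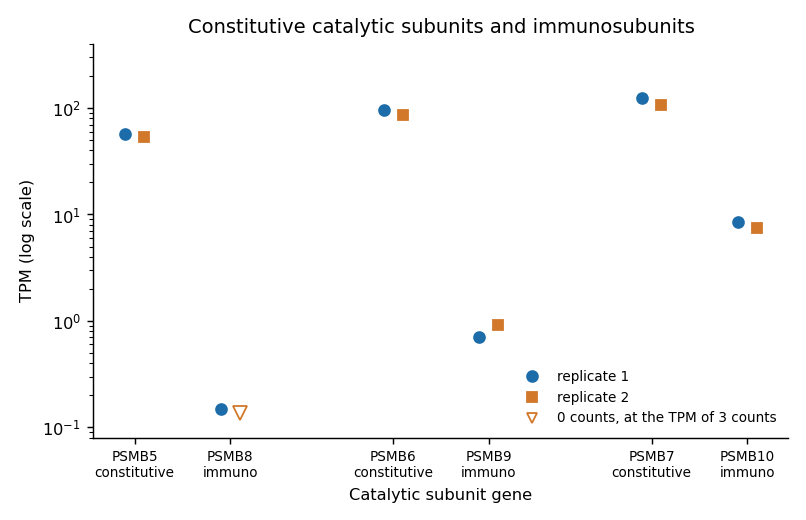
TPM on a log scale of each constitutive catalytic subunit gene beside the immunosubunit gene that replaces its product, with a point for each library. The gap is about 14-fold for PSMB7 and PSMB10 and above 95-fold for the other pairs; the open triangle marks PSMB8 in replicate 2, which had 0 counts and is drawn at the TPM of 3 counts.

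The members of a pair are related, and the sequences below show how well 50-base reads can tell them apart. The coding sequences were 70.5% identical for PSMB8 and PSMB5, 66.4% for PSMB9 and PSMB6 and 64.7% for PSMB10 and PSMB7 over their aligned bases, and no pair shared a 50-base sequence. The longest identical stretches had 22, 16 and 14 bases. They are shown in capitals with the coding bases around them (GRCh37, strand of the gene, 5′ to 3′). The bases shown for PSMB8 cross from exon 4 to exon 5 and those for PSMB5 from exon 2 to exon 3, at chr6:32809500-32809949 and chr14:23495579-23502622. The bases shown for PSMB9 and PSMB6 lie in exon 2, at chr6:32823919-32823964 and chr17:4700027-4700072. Those of PSMB10 and PSMB7 lie in exon 7, at chr16:67968769-67968812 and chr9:127119112-127119155.
PSMB8: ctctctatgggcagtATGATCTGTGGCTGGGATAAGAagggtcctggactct
PSMB5: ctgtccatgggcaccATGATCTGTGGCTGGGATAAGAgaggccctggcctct
PSMB9: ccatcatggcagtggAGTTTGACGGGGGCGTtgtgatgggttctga
PSMB6: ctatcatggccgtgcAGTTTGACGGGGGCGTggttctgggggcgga
PSMB10: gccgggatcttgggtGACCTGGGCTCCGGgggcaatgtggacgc
PSMB7: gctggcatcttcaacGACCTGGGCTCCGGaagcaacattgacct

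Other neighbours bear on these low values. PSMB8 and PSMB9 overlap each other and the long noncoding gene PSMB8-AS1 (1.64 and 2.09 counts) on chromosome 6, so which of these genes a single read came from is less certain. The 0 counts of PSMB8 in replicate 2 had a posterior SD of 0.78 reads. When both libraries were pooled, PSMB8 was given 5 counts, beside 3 and 0 in the single libraries. PSMB10 shares 30.8% of its 50-base sequences with the readthrough gene ENSG00000261884, which was given 121 and 130 counts, about as many as PSMB10. The thymus subunit PSMB11 (0.03 and 0 TPM) and the testis subunit PSMA8 (0 in both libraries) were not detected.

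The 6 ATPases of the 19S base had medians of 77.0 and 79.5 TPM. PSMC5 was the highest at 189 and 166 TPM. PSMC3 (90.2 and 83.0 TPM), PSMC4 (83.1 and 75.9 TPM) and PSMC2 (71.0 and 87.3 TPM) overlapped one another. PSMC6 was the lowest at 32.9 and 39.7 TPM, 4.89-fold below PSMC5 on average. The ATPases form 1 ring with 1 copy of each, as the alpha subunits do.

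PSMC1 had 44.3 and 59.5 TPM, and its value depended on how reads were shared with a copy elsewhere in the genome. The processed pseudogene PSMC1P1 (chr3:68684856-68686175, plus strand) aligned to all 1320 coding bases of PSMC1 (chr14:90722871-90741773, plus strand) with 1319 identical. The one mismatch, T885A (PSMC1 base first, counted from 1 at the first coding base), turns codon 295 of 440, TAT, into TAA, a stop codon. It is the capital in the 61-base stretches below, at chr14:90734731-90735774 across exons 8 and 9 of PSMC1 and at chr3:68685710-68685770 for PSMC1P1 (GRCh37).
PSMC1: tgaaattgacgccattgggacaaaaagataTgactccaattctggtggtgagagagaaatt
PSMC1P1: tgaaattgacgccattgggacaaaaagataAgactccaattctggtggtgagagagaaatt
A 50 bp read from the coding sequence that does not cover this base, and is not joined to an untranslated region, fits both genes alike. The tables gave PSMC1 1243 and 1580 counts and PSMC1P1 999 and 1157 counts, with posterior SDs of 71.2 and 79.3 reads for PSMC1, the largest of any member. PSMC1 thus received 55.4% and 57.7% of the reads given to the pair. The TPM of both genes summed to 87.3 and 103, beside 71.0 to 90.2 TPM for PSMC2 to PSMC4 in replicate 1 and 75.9 to 87.3 TPM in replicate 2. NRDE2, which lies on the opposite strand and shares 72.2% of the 50-base sequences of PSMC1 in either direction, was given 383 and 469 counts with posterior SDs of 0.38 and 0.79 reads.

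**Figure D3:**
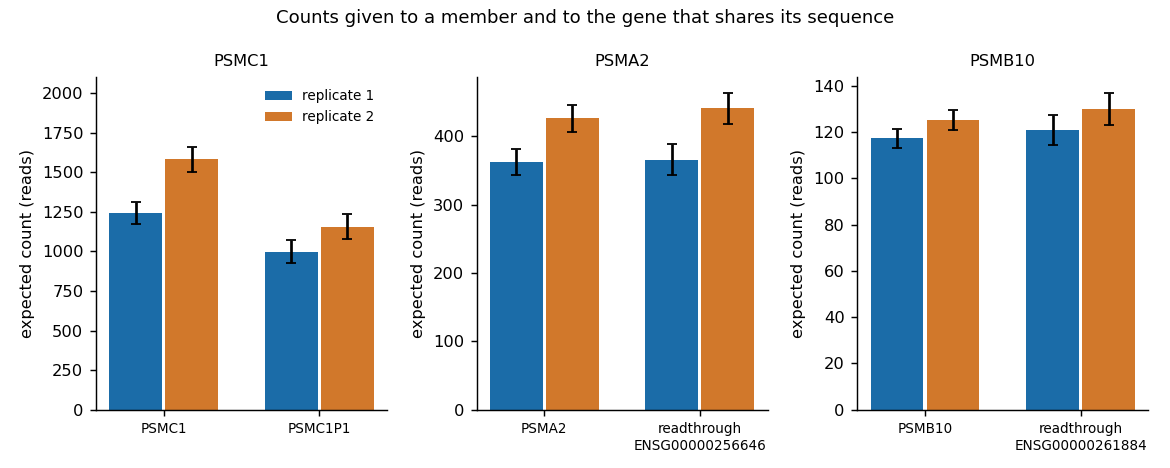
Expected counts in each library, with the posterior SD of the deposited tables as error bars, for PSMC1, PSMA2 and PSMB10 and for a gene that shares sequence with each. In each panel both genes were given counts of the same order, 999 to 1580 for PSMC1 and PSMC1P1, 362 to 441 for PSMA2 and its readthrough gene, and 117 to 130 for PSMB10 and its readthrough gene.

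The 14 non-ATPase genes of the 19S particle had medians of 55.1 and 61.7 TPM. PSMD8, a lid subunit, was the highest at 274 and 236 TPM. PSMD12, another lid subunit, followed with 119 and 141 TPM. PSMD2 (103 and 94.5 TPM) and PSMD1 (41.9 and 50.3 TPM), the large scaffolds of the base, differed by 2.14-fold on average. PSMD4, a ubiquitin receptor, had 103 and 93.0 TPM. The 8 lid genes had medians of 71.7 and 67.0 TPM. PSMD14, the metalloprotease of the lid that cuts off ubiquitin chains, was the lowest lid gene with 16.1 and 22.6 TPM. The remaining lid genes (PSMD3, PSMD6, PSMD7, PSMD11 and PSMD13) lay between 45.6 and 87.6 TPM.

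Of the genes counted here whose products help to assemble the 19S base and leave it again, PSMD10 (54.3 and 63.6 TPM) and PSMD9 (47.8 and 46.7 TPM) were near the lid genes. PSMD5 (chr9:123577774-123605229, minus strand) was near the detection limit, with 16 and 46 counts, or 0.56 and 1.91 TPM. Its TPM differed 3.41-fold between the libraries, the largest ratio among the members above 0 in both. The deposited length differed too, at 1623 and 1211 bases. PSMD5 shared no 50-base sequence with another gene.

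Among the proteins that cap or restrain the core, PSMF1, which binds the core and can inhibit it, had the highest TPM of all members, 358 and 304. This rank rested on the length used: the deposited length was 695 and 710 bases, while the canonical transcript has 8154. On CPM per kb of canonical transcript, PSMF1 was the 30th of 41. PSME3, the nuclear activator, had 176 and 157 TPM. PSME1 and PSME2, which form the interferon-inducible activator together, were close to each other at 54.1 and 51.3 TPM and at 49.9 and 48.9 TPM. PSME4, the large nuclear activator, was the lowest of the group at 20.7 and 32.3 TPM. In both libraries PSME1 and PSME2 stood above all 3 immunosubunits, with which interferon induces them.

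The subcomplexes had the same order of median TPM in both libraries. The alpha ring (129 ± 10.7, SD, n = 2) came before the constitutive beta ring (107 ± 9.67), the ATPases (78.2 ± 1.74), the non-ATPases (58.4 ± 4.67), the regulators (52.7 ± 2.04) and the immunosubunits (0.81 ± 0.14). The ranges of neighbours in this order did not overlap over the 2 libraries. As a median log2 difference from the 13 constitutive core genes, the ATPases were at -0.69 and -0.43, the non-ATPases at -1.17 and -0.79 and the regulators at -1.19 and -1.06. The immunosubunits were at -7.44 and -5.35, the latter without PSMB8, which was at 0, and at a mean of -7.16 with PSMB8 set to the TPM of 3 counts. The alpha ring was at 0.15 and 0.19 and the beta ring at -0.12 and -0.09, but the mean of log2 TPM in place of the median put the alpha ring below the core (-0.20) and the beta ring above it (0.23). That summary also put the regulators (-0.39) above the ATPases (-0.51) and the non-ATPases (-1.07), and the median of the non-ATPases without PSMD5, PSMD9 and PSMD10 (-0.51) passed that of the ATPases (-0.56). Genes also differed within a subcomplex, with an SD of log2 TPM over members of 1.48 for the alpha ring, 0.90 for the beta ring and 0.77 for the ATPases. On CPM per kb of canonical transcript, 4 members (PSMA4, PSMD12, PSME2 and PSMF1) moved by more than 10 ranks, 7 members were among the top 10 on both scales, and 4 of the lowest 5 were shared.

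The replicates differed in the subunit genes by more than counting noise, and the direction went only in part with the GC content of the genes. With an exact binomial test between the libraries (scaled by edgeR's TMM, adjusted by Benjamini-Hochberg over 19714 genes), 32 of 40 tested members differed at an adjusted p under 0.05. Of these, 23 were higher in replicate 1 and 9 in replicate 2. Over all genes tested 42.1% differed, 20% with higher counts in replicate 1 and 22.1% in replicate 2, and 70.5% differed among genes with at least 1000 counts in all, where 31 of 36 members did. The test compares 2 libraries of 1 group and says nothing of a condition, and the labels do not say whether the replicates came from separate cultures, so their spread may be technical. With edgeR's exact test and an assumed biological coefficient of variation of 0.1, 0 of the 40 members differed, against 7.71% of all genes (2 of 40 members and 16.2% of all genes had an unadjusted p under 0.05). The assumed value lay below the common value of 0.20 that edgeR estimated over the tested genes from these 2 libraries, so these shares rest on the assumption.

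The largest ratios among members with at least 100 counts were those of PSMA3, PSMC6, PSMD8, PSMD14 and PSMD3. PSMA3 had 683 and 1161 counts, a log2 ratio of replicate 2 over replicate 1 of 0.48 (adjusted p = 1.66e-11 by the binomial test). PSMC6 had 437 and 688 counts (log2 ratio 0.37), and PSMD14 had 547 and 845 counts (0.35). PSMD8, with 4649 and 4404 counts (-0.36), and PSMD3, with 3218 and 3092 counts (-0.34), went the other way. PSMA3, PSMC6 and PSMD14 have 40.2%, 40.3% and 40.8% GC in their exons, and PSMD8 and PSMD3 have 56.2% and 55.4%.

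Among 38 members with at least 100 counts, 10 of 16 below 45% GC had a higher share in replicate 2, against 1 of 5 from 45% to 50% and 0 of 17 above. Across these members the log2 ratio and GC content had a Pearson r of -0.75 and a Spearman rho of -0.70, and across 13544 genes -0.62 and -0.69. These are descriptions over genes that share the same pair of libraries. With the median ratio of genes of like GC content removed, 27 members differed, 1 higher in replicate 2 and 26 in replicate 1. Of 19048 genes tested in this way, 5481 (28.8%) differed, 2770 higher in replicate 2 and 2711 in replicate 1. The share among genes with at least 1000 counts was not computed for this setting. PSMA3 then had a log2 ratio of -0.04 (adjusted p = 0.75), PSMC6 -0.14 and PSMD14 -0.08, while PSMD8 kept -0.17 and PSMD3 -0.18. The median member was at -0.17 after this step, beside 0.02 for all genes tested.

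**Figure D4:**
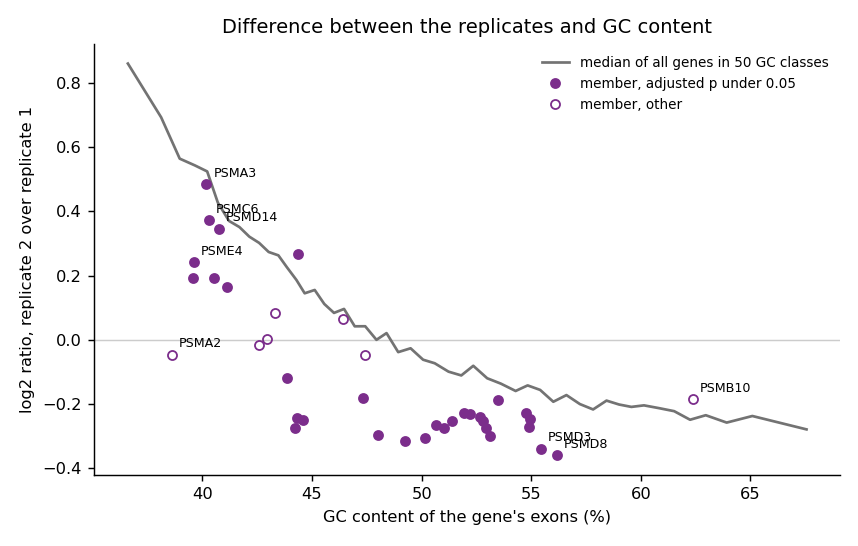
The log2 ratio of replicate 2 over replicate 1 of each member with at least 100 counts (filled where the adjusted p of the binomial test was under 0.05) against the GC content of its exons, over the median of all genes in 50 GC classes. Members below 45% GC lie on both sides of 0, all members above 50% GC lie below 0, and most members lie below the line of all genes.

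The promoters of the subunit genes were read for motifs of factors with a known part in their control, in RefSeq windows of 300 bases (250 before the annotated start and 50 from it, GRCh38.p14) on both strands. Windows were found for 37 of the 42 genes. The core of the antioxidant response element that NRF1 and NRF2 bind, TGACNNNGC, stood in a window of 13 of these 37 genes (35.1%), against 16.1% of 27305 genes. It was found in 1 of 6 alpha, 1 of 4 beta, 2 of 6 ATPase, 5 of 13 non-ATPase and 3 of 5 regulator genes, and in 1 of 3 immunosubunit genes. The 2-unit heat shock element GAANNTTC was in 0 of 37, against 8.21% of genes, and the CRE TGACGTCA in 0 of 37, against 2.25%. CCAAT was in 18 genes (48.6% against 39.7%) and the SP1 motif GGGCGG in 25 (67.6% against 48.3%). Members with several windows have more chances of a match, and a match is a description of letters, not of binding.

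The matches to the antioxidant response element core that lie wholly before a start are shown with 10 bases on each side, on the strand of the gene, the match in capitals (it reads on the opposite strand in PSMB9, PSMC5, PSME4 and the first PSMD9 site). The genes with such a site ranged from PSMB9 and PSMD5, near the detection limit, to PSMA4 (217 and 280 TPM) and PSMC5 (189 and 166 TPM).
PSMA4 (chr15:78540650-78540678): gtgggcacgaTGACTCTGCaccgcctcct
PSMB3 (chr17:38752627-38752655): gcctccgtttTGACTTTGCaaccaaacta
PSMB9 (chr6:32854034-32854062): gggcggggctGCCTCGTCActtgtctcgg
PSMC5 (chr17:63827654-63827682): gaccggatctGCTGTGTCAgcgccgccct
PSMD3 (chr17:39980760-39980788): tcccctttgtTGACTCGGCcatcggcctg
PSMD5 (chr9:120843038-120843066): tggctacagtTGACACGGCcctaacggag
PSMD9 (chr12:121888631-121888659): cgctactcctGCCGGGTCAccacaggcgc
PSMD9 (chr12:121888678-121888706): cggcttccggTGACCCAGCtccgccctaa
PSMD12 (chr17:67366724-67366752): agacaaaaccTGACGCTGCaggctggagt
PSME1 (chr14:24136098-24136126): atggcagggcTGACCCCGCctcctccatc
PSME2 (chr14:24146767-24146795): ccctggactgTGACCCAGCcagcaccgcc
PSME4 (chr2:53971009-53971037): cccggcggctGCAGCGTCAccagcagagc

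The core of the interferon-stimulated response element, which is GAAA, any 2 bases and GAAA, was in a window of 6 of the 37 genes (16.2%), against 4.38% of all genes. These were the immunosubunits PSMB8 and PSMB10, the activators PSME1 and PSME2, and PSMA4 and PSMB4. Those that lie wholly before a start are shown in capitals with 10 bases on each side.
PSMB10 (chr16:67936852-67936881): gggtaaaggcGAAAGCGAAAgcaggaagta
PSME2 (chr14:24146619-24146648): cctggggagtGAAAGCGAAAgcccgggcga
PSMB4 (chr1:151399495-151399524): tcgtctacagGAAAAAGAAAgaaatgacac
PSMA4 (chr15:78540155-78540184): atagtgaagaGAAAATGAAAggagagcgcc
The sites of PSMB10 and PSME2 are identical over the match and lie 21 to 12 and 28 to 19 bases before the start. Their genes stood at 8.04 and 49.4 TPM on average, and PSMB4, which holds the motif too, at 301 TPM.

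The genes that work with the proteasome were detected nearly throughout. All 6 assembly factors of the core and the 19S particle reached 1 TPM, from PSMG2 (14.1 and 14.7 TPM) to PSMG1 (145 and 132 TPM). POMP, the chaperone that completes the beta rings, had 14.5 and 14.9 TPM. All 7 proteasome-associated proteins were detected, from TXNL1 (38.1 and 38.3 TPM) to ECPAS (127 and 133 TPM), and the ubiquitin receptor ADRM1 was at 90.4 and 75.0 TPM. Of 6 shuttle factors, which carry ubiquitinated proteins to the 19S particle, 5 were detected, while DDI1 was at 0. Between the libraries 2 of 6 assembly genes, 3 of 7 associated genes and 4 of 5 tested shuttle genes differed by the binomial test. Of all genes 42.1% did, and of genes with at least 1000 counts in all 70.5% did.

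All 7 genes of the NRF1 axis were detected. NFE2L1, which encodes NRF1, was at 114 and 107 TPM, and VCP, the ATPase that extracts it from the endoplasmic reticulum, was the highest on average at 117 and 107 TPM. DDI2, the protease that activates NRF1, was at 15.7 and 16.9 TPM, and NGLY1, which removes its glycans, was the lowest on average at 12.8 and 18.3 TPM. NFE2L2, which encodes NRF2, had 43.6 and 75.1 TPM. Of these 7 genes, 6 differed between the libraries, 4 of them higher in replicate 2, against 42.1% and 22.1% of all genes. All but NGLY1 had at least 1000 counts in all, where 70.5% of genes differed. With the GC trend removed, NFE2L1, NGLY1 and SEL1L no longer differed (adjusted p of 0.19, 0.99 and 0.39 by the binomial test). NFE2L2, DDI2 and VCP still did, and SYVN1 then did too (0.044). In this setting 28.8% of all genes differed, and the share among genes with at least 1000 counts was not computed.

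The 12 interferon and antigen presentation genes were all detected, unlike PSMB8 and PSMB9, which interferon also induces. B2M was the highest at 285 and 295 TPM, and HLA-C had 276 and 222 TPM. TAP1, the peptide transporter gene next to PSMB9, had 6.53 and 5.56 TPM (310 and 290 counts), beside 0.71 and 0.91 TPM for PSMB9. IRF1 had 5.46 and 6.99 TPM, and NLRC5, an activator of class I genes, was the lowest at 1.17 and 2.31 TPM.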

How the data were processed

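RNA-seq values of 2 replicates of heat-shocked HEK293T cells were used. Per the labels' protocols, poly(A)+ RNA was read at 50 bp, although their molecule field names genomic DNA. The submitters' processing notes name Trimmomatic 0.36, STAR 2.6.1c and RSEM 1.3.1 on hg19 (GRCh37.p13); the study's methods name another counting program, so the tables were described by their RSEM columns. The deposited expected counts and TPM were used as they stood, and deposited FPKM as an alternative; posterior SDs, gene lengths and a pooled table were used for checks. Expected counts were rounded for tests. A gene was detected at 1 TPM in both libraries. The test was a two-sided exact binomial test per gene with edgeR 4.0.16 TMM scaling, for summed counts of at least 10, in Python 3.11.15 with scipy 1.17.1. DESeq2 1.42.0 gave alternative size factors. The binomial test was tested on simulated counts that held only counting noise, set changes and, in a further run, a GC trend. Other spread between replicates was not simulated, so this does not show how the test does on these libraries. Log2 ratios carry a pseudocount of 0.5 counts. Sequence came from GENCODE transcripts on GRCh37 and RefSeq promoter windows on GRCh38.p14. In the pooled table, 34 of 41 members lay within 0.5 reads of the sum of both libraries. PSMB8 was not among them, with a difference of 2 reads, and the largest difference was 7.95 reads, for PSMC1. The members and gene lists were chosen with earlier results of these data known. Genes were named by rule: the 3 catalytic pairs, the 5 highest and 5 lowest members, the extremes of each subcomplex, the regulators, and the 5 largest replicate ratios from 100 counts. The other members are given so that all are accounted for, and POMP, ADRM1, NFE2L1, NFE2L2, DDI2, HLA-C, TAP1 and IRF1 were chosen after their values were seen. Values of some genes of the related lists are not reported here.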

Additional observations from a re-analysis of the deposited data

How the results depend on the processing

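No paired analysis was possible because there is only 1 group of samples. With 2 replicates, each level rests on its own library, and counting depth limits PSMB8, PSMB9 and PSMD5 most among the members. The number of members detected stayed between 37 and 40 with TPM limits of 0.5, 5 and 10, FPKM or CPM, and was 38 and 39 in single libraries. The members' share was 0.347% of expected counts and 0.556% of protein-coding TPM, and 0.396% and 0.409% with 1 library left out.

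Subcomplex levels (log2, relative to the 20S core) ranged with 1 library left out from 0.15 to 0.19 for the alpha ring, -0.12 to -0.09 for the beta ring, -7.44 to -5.35 for the immunosubunits, -0.69 to -0.43 for the ATPases, -1.17 to -0.79 for the non-ATPases and -1.19 to -1.06 for the regulators. The mean of log2 TPM gave -0.20 for the alpha ring, 0.23 for the beta ring and -0.39 for the regulators. Counts per kb of deposited length gave -0.083 for the beta ring. Counts per kb of canonical transcript, chosen after seeing the data, gave -0.81 for the alpha ring, 0.15 for the beta ring and -0.98 for the ATPases. Detected members alone gave -3.84 for the immunosubunits, and leaving out PSMD5, PSMD9 and PSMD10 gave -0.51 for the non-ATPases. The sign of the alpha and beta rings against the core, and the order of the ATPases, non-ATPases and regulators, therefore depended on the summary.

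For the catalytic pairs (log2 of immunosubunit over constitutive), PSMB8 was at -8.57 in the 1 library with a count, -8.58 per kb of deposited length, -5.71 on log2(TPM + 1), -8.45 with the gene of most shared sequence added and -8.57 per kb of canonical transcript. PSMB9 was between -7.08 and -6.58 in single libraries and at -5.68 on log2(TPM + 1). PSMB10 was between -3.86 and -3.82, at -3.68 on log2(TPM + 1), -3.59 with its readthrough gene added and -4.08 per kb of canonical transcript.

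With GC and length trends removed, chosen after seeing the data, 19 of 40 members (47.5%) differed between the libraries, against 27.2% of all genes. The median member ratio was then -0.10, beside 0.02 for all genes tested. With edgeR's exact test at the assumed coefficient of variation of 0.1, 0 members differed, against 7.71% of all genes. Under the other settings 27 to 32 members differed (67.5% to 82.1%), against 25.0% to 52.7% of all genes. Ratios between replicates that changed sign with the GC trend removed were those of PSMA3 (-0.041), PSMA4 (-0.27), PSMC2 (-0.35), PSMC6 (-0.14), PSMD1 (-0.28), PSMD10 (-0.18), PSMD12 (-0.21), PSMD14 (-0.075), PSME4 (-0.30), PSMB10 (0.061) and PSMC1 (-0.030). With the length trend removed too they were PSMA4 (-0.19), PSMC2 (-0.30), PSMC6 (-0.030), PSMD1 (-0.33), PSMD9 (0.060), PSMD12 (-0.18), PSMD14 (-0.079), PSME4 (-0.40), PSMB10 (0.17), PSMC1 (-0.0064) and PSMD10 (-0.13). The cause was not tested. No call for the related lists changed at 5 TPM except that 10 of the 12 antigen presentation genes passed.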
